A study of Homo sapiens with 8 samples.

Results

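The 50 genes described here encode proteins that carry a cell through mitosis. They run from the transcription factors FOXM1 and MYBL2 through CDK1 and its cyclins to kinetochore, spindle and cytokinesis proteins. They were taken as a given list of symbols, and all 50 were found among the 57736 Ensembl gene IDs measured. They were sorted by role into 11 groups of 2 to 10 genes. RNA was counted in IMR90 cells, an established line of human fetal lung fibroblasts, in 8 libraries with 1 library for each group.

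The RNA-seq experiment held an ADAR1 knockdown library (KD) and a control library (Ctrl) of total RNA. ADAR1, encoded by ADAR, edits adenosine to inosine in double-stranded RNA. The other experiment used 3 lines of the same cells named for their short hairpin RNA, shHuR, shADAR1 and shControl. Each line gave RNA precipitated with an antibody against HuR and an input library with no antibody. HuR, encoded by ELAVL1, is a protein that binds U-rich and AU-rich stretches of mRNA. The labels give neither the hairpin sequences, nor whether a line is a clone, nor the agent of the RNA-seq knockdown, and the series title places the work in cellular senescence, a lasting arrest of division. No mock precipitate was among the samples, so a high precipitate over input does not by itself separate HuR binding from unspecific recovery.

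Mitosis begins when CDK1 bound to cyclin B is activated by CDC25 phosphatases. Kinetochores then assemble on centromeres marked by the histone variant CENPA and attach to spindle microtubules, and a checkpoint holds back the activator CDC20 of the anaphase-promoting complex until all chromosomes are attached. CDC20 then leads to the destruction of securin and cyclin B, separase cleaves cohesin, and the cell divides. Many of these genes are transcribed only late in the cell cycle. In resting cells the DREAM complex represses them through a promoter element called the cell-cycle genes homology region, whose core is TTTGAA, and in cycling cells MYBL2 and FOXM1 activate them. CCAAT boxes, bound by NF-Y, often stand close by.

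The promoters of 4 members are shown because 46 of the 50 genes were lower at 2-fold in the shHuR input and because these 4 are an anaphase activator, a mitotic kinase, a centromere histone and a cyclin. Sequences are from RefSeq (GRCh38.p14), from 250 bases before to 50 bases after the start site. Capitals mark the TTTGAA core, which reads as TTCAAA on the opposite strand, and the CCAAT box, which is written there as ATTGG. CDC20 is at chr1:43358731-43359030 (+), PLK1 at chr16:23678639-23678938 (+), CENPA at chr2:26785806-26786105 (+) and CCNB1 at chr5:69166900-69167199 (+).
CDC20: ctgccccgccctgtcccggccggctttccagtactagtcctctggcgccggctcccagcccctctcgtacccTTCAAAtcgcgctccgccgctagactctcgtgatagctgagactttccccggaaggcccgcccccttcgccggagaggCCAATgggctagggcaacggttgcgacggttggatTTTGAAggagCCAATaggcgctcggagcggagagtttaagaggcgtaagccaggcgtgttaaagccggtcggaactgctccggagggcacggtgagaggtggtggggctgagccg
PLK1: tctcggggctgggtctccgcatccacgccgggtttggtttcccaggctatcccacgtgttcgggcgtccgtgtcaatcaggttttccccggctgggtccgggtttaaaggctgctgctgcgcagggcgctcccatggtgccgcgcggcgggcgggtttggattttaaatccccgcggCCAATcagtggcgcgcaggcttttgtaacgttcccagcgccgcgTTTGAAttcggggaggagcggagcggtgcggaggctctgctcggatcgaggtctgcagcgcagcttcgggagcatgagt
CENPA: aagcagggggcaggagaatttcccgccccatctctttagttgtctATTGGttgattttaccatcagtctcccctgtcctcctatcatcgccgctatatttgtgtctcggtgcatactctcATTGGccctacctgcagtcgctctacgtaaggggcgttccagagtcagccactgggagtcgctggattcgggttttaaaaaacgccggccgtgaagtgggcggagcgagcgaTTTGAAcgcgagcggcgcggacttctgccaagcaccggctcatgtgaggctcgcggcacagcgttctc
CCNB1: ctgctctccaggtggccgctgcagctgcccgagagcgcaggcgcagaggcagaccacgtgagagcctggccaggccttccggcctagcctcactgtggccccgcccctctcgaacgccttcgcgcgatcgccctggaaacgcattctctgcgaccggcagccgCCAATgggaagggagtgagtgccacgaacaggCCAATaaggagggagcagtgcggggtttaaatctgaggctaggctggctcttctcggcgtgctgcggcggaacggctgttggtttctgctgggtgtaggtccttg
The last TTTGAA began 65 bases before the start site in CDC20, 29 before in PLK1 and 18 before in CENPA, and the CCNB1 window had no TTTGAA but 2 CCAAT. Of the 41 members with an entry in the promoter table, 27 (65.9%) held TTTGAA on either strand, against 15.4% of all 27305 promoters. CCAAT was in 31 (75.6%) against 35.7%, and both motifs were in 23 (56.1%) against 6.08%. The motifs are a description of these windows and no binding was measured.

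Library totals were 50711218 counts for KD and 39172819 for Ctrl, 28390935 to 36717888 for the inputs and 29233961 to 44578878 for the precipitates. ADAR was 7.00-fold lower in KD and 2.93-fold lower in the shADAR1 input, and ELAVL1 was 6.63-fold lower in the shHuR input, each against its control. All 9 fibroblast markers were detected in every library, with a summed level of 2485 to 1.19e+04 CPM (counts scaled to an equal library total). The endothelial gene CDH5 and the basal keratins KRT5 and KRT14 were at 0 in all 8 libraries. The summed level was 0.606 to 15.3 CPM for 5 epithelial and 3.65 to 78.2 CPM for 3 endothelial markers, of which VWF and TEK were detected in every library.

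The 50 genes together took 0.510% of the counts in KD (Wilson interval at 95%, 0.508 to 0.512) and 0.632% in Ctrl (0.630 to 0.635). In the inputs they took 0.0356% in shHuR (0.0350 to 0.0362), 0.102% in shADAR1 (0.101 to 0.103) and 0.226% in shControl (0.224 to 0.227). In the precipitates they took 0.0153% in shHuR, 0.0536% in shADAR1 and 0.129% in shControl. The share was thus lowest in shHuR and highest in shControl in both kinds of library of that experiment. These intervals, like those below, cover counting error only. Fewer dividing cells and less of each mRNA per dividing cell cannot be told apart in such bulk libraries. In the shHuR line 18 members had under 50 counts in the input and 36 in the precipitate, 1 of them (CDC25C) at 0.

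**Figure D1:**
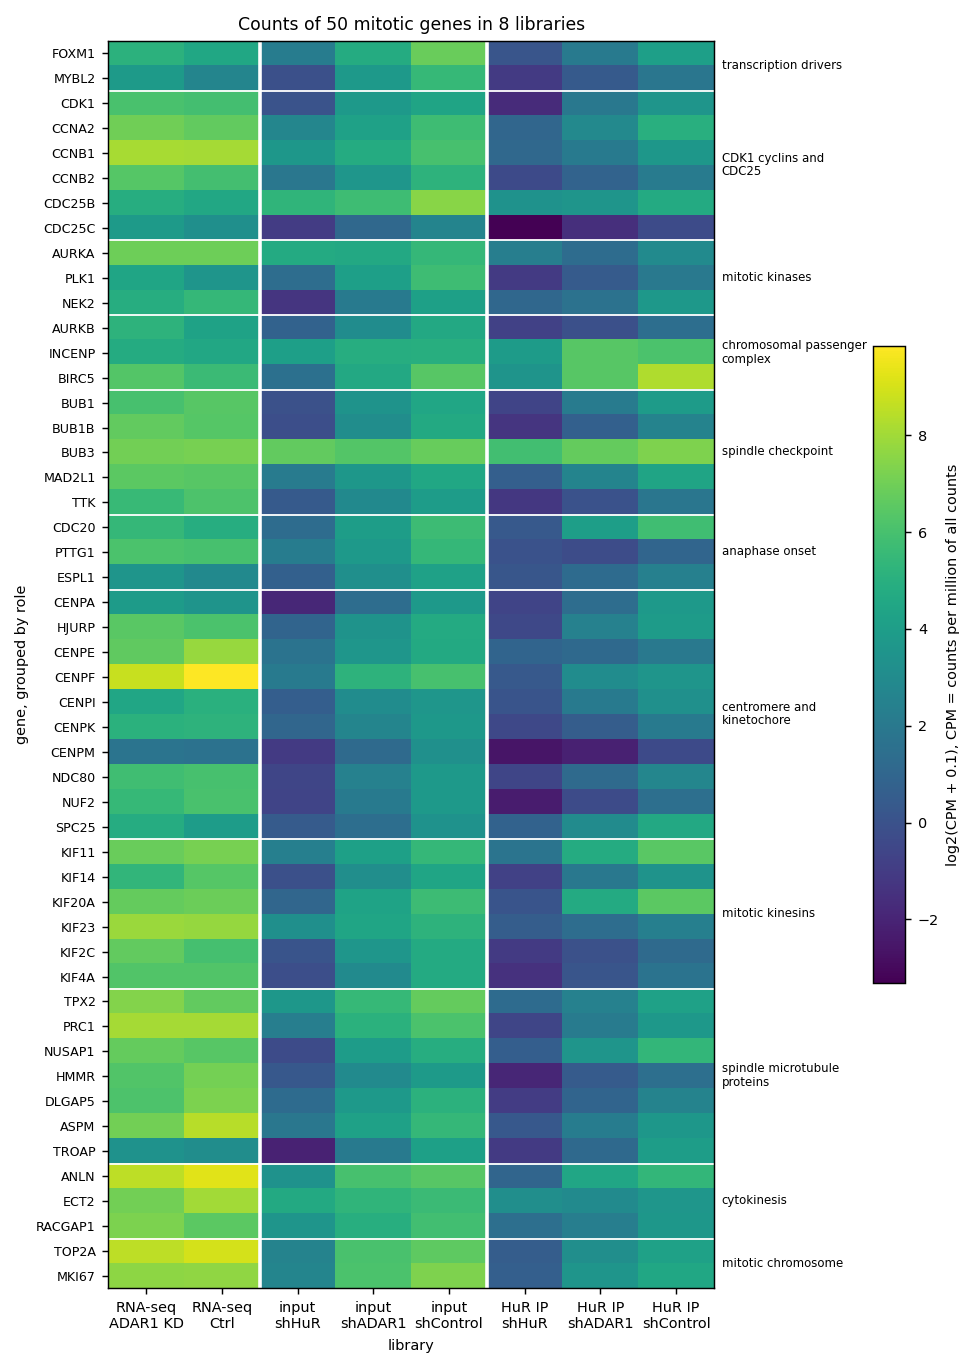
Level of each of the 50 genes in each library as log2(CPM + 0.1), scaled by total counts, with genes in rows grouped by role and the 8 libraries in columns. The shHuR input and shHuR precipitate columns are the darkest of their kind for most genes, and BUB3 keeps a similar shade in all 3 inputs.

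Levels per transcript length were available for the RNA-seq libraries as deposited FPKM (fragment counts divided by gene length and depth). The cytokinesis scaffold ANLN stood highest in Ctrl and second in KD, at 237 FPKM in KD and 374 in Ctrl. PRC1, which bundles microtubules of the central spindle, had 272 FPKM in KD and 245 in Ctrl, and cyclin B1 (CCNB1) had 235 and 229 in the same order of groups. At the low end were separase (ESPL1), with 3.74 FPKM in KD and 2.50 in Ctrl, and MYBL2, with 5.94 in KD and 2.61 in Ctrl. PRC1 and NUSAP1 share 58.4% and 62.2% of their exon bases with other annotated genes, so their counts are uncertain in every comparison.

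After ADAR1 knockdown in the RNA-seq experiment the mitotic genes were split. Their median log2 ratio was 0.07, against -0.01 over all 13235 genes with at least 50 counts in either library, with 29 genes above 0 and 21 below. At the limit of 2-fold, 1 gene was higher, where 8.31% of all genes were, and 5 were lower, where 7.71% of all genes were. Library sizes were adjusted by TMM, a trimmed mean of the log ratios between libraries, before ratios were taken. With 1 library a group there is no replicate check and no test.

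The activator MYBL2 had 735 counts in KD and 243 in Ctrl, which is 2.31-fold higher (log2 ratio 1.21, interval at 95% 0.996 to 1.42). FOXM1, the forkhead factor of the same gene program, had 1762 counts in KD and 889 in Ctrl (0.60, 0.48 to 0.72). All 6 genes of the CDK1, cyclin and CDC25 group lay above 0, with a median of 0.30. CCNB1 was close to 0, with 14048 counts in KD and 10496 in Ctrl (0.03, -0.01 to 0.07), and the phosphatase CDC25B had 1514 in KD and 944 in Ctrl (0.29, 0.17 to 0.41). The intervals of both transcription factors lie above that of CCNB1.

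Among mitotic kinases, the centrosome kinase AURKA had 6342 counts in KD and 4878 in Ctrl (-0.01, -0.06 to 0.04). PLK1, which acts from mitotic entry to cytokinesis, had 1081 in KD and 455 in Ctrl (0.86, 0.70 to 1.02). NEK2, which splits the centrosomes, had 1511 in KD and 1689 in Ctrl (-0.55, -0.65 to -0.45). The 3 kinases therefore stood at 0, above it and below it.

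The chromosomal passenger complex corrects wrong attachments through its kinase AURKB, held by the scaffold INCENP and by survivin (BIRC5), and its 3 genes lay above 0. AURKB had 1849 counts in KD and 751 in Ctrl (0.91, 0.79 to 1.03). BIRC5 had 4132 in KD and 1996 in Ctrl (0.66, 0.58 to 0.74), and INCENP had 1414 in KD and 934 in Ctrl (0.21, 0.09 to 0.33). The checkpoint group had a median of -0.13, from TTK, the checkpoint kinase, at -0.66 to BUB1B at 0.29. Within it BUB3, a checkpoint adaptor, had 6624 in KD and 5522 in Ctrl (-0.13, -0.18 to -0.08), and MAD2L1, which inhibits CDC20, had 4719 in KD and 3384 in Ctrl (0.09, 0.03 to 0.15).

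A few others named below for the inputs or for HuR recovery were within 2-fold here. CENPA had 744 counts in KD and 435 in Ctrl (0.38, 0.21 to 0.56), and TROAP had 521 in KD and 340 in Ctrl (0.23, 0.03 to 0.43). CDK1 had 3370 in KD and 2320 in Ctrl (0.15, 0.07 to 0.23), and CDC25C had 722 in KD and 365 in Ctrl (0.59, 0.41 to 0.78). KIF20A had 5368 in KD and 4618 in Ctrl (-0.17, -0.23 to -0.12), the lowest ratio of these 5.

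The anaphase group lay above 0. CDC20 had 2209 counts in KD and 1163 in Ctrl (0.54, 0.43 to 0.64), and securin (PTTG1), which holds separase inactive, had 3527 in KD and 2512 in Ctrl (0.10, 0.03 to 0.17). ESPL1 stood at 0.60.

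The 5 genes called lower were ASPM, CENPE, CENPF, DLGAP5 and KIF14. ASPM, which acts at spindle poles, had 6774 counts in KD and 13374 in Ctrl and was 2.59-fold lower (-1.37, -1.41 to -1.33). CENPE, a kinetochore motor, had 5041 in KD and 8737 in Ctrl (-1.18, -1.23 to -1.13), and CENPF, a large kinetochore protein, had 21923 in KD and 36156 in Ctrl (-1.11, -1.14 to -1.09). The spindle protein DLGAP5 stood at -1.09 and the kinesin KIF14 at -1.06. Against them the kinetochore subunit SPC25, with 1442 counts in KD and 604 in Ctrl, stood at 0.87, the kinesin KIF2C, which depolymerizes microtubules, at 0.71, and the spindle assembly factor TPX2 at 0.66.

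Of the other kinesins, KIF11, which pushes spindle poles apart, had 5872 counts in KD and 5605 in Ctrl (-0.32, -0.38 to -0.27), and the central spindle motor KIF23 had 11744 in KD and 8574 in Ctrl (0.06, 0.02 to 0.10). The cytokinesis genes diverged, with ANLN at 18866 in KD and 23935 in Ctrl (-0.73, -0.76 to -0.71). ECT2, which activates RhoA at the cleavage site, had 6697 in KD and 10046 in Ctrl (-0.97, -1.02 to -0.93). RACGAP1, the partner of KIF23, stood at 0.73. PRC1 stood at 0.01, with 13848 in KD and 10532 in Ctrl. The topoisomerase TOP2A, which untangles chromosomes, had 18804 in KD and 20271 in Ctrl (-0.50, -0.53 to -0.47), and the proliferation marker MKI67 had 10063 in KD and 7883 in Ctrl (-0.04, -0.08 to 0.01).

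The RNA-seq ratio followed base composition and length across the 50 genes. Its correlation with transcript GC content was r = 0.66 (rho = 0.69) and with transcript length r = -0.49 (rho = -0.44). Over 12930 genes the values were 0.28 (0.38) and -0.32 (-0.33). The points of each set share the same library pair. With trends over GC and length removed, 0 of the 50 were lower at 2-fold: ASPM stood at -0.73, CENPE at -0.47, CENPF at -0.66, DLGAP5 at -0.68 and KIF14 at -0.50. MYBL2 remained past the limit at 1.02, and AURKB stood at 0.52 and PLK1 at 0.65. Of the anaphase genes, PTTG1 then lay below 0 at -0.29, with CDC20 at 0.26 and ESPL1 at 0.60. The part of composition in these ratios was not tested further.

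**Figure D2:**
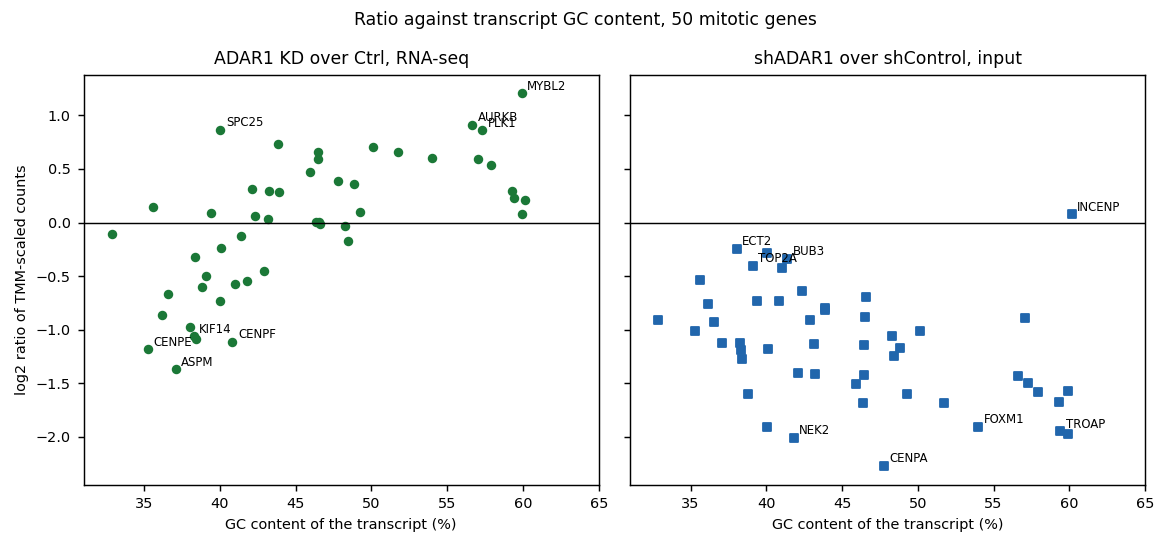
The log2 ratio of TMM-scaled counts against the GC content of the transcript in percent, 1 point per gene, for KD over Ctrl in the RNA-seq (left) and shADAR1 over shControl in the inputs (right). The RNA-seq points climb with GC content (r = 0.66) and the input points run the other way (r = -0.39), with INCENP alone above 0 on the right.

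In the inputs these genes were lower in both knockdown lines. In shADAR1 against shControl, 49 of 50 genes lay below 0, with a median log2 ratio of -1.14 against -0.03 over all 13192 genes. At 2-fold 31 were lower, where 10.3% of all genes were, and 0 were higher, where 9.14% of all genes were. In shHuR against shControl all 50 lay below 0, with a median of -3.79 (13.8-fold) against -0.03 over all 13390 genes. At 2-fold 46 were lower, where 15.9% of all genes were, and 0 were higher, where 12.0% of all genes were. Both comparisons use the same shControl library, and a direct comparison of the knockdown lines follows them. In shADAR1 the ratios of the 50 went with transcript GC content (r = -0.39) and length (r = 0.46). Over 12879 genes these values were -0.24 and 0.16. With trends over GC and length removed, the medians of the 50 were -1.28 in shADAR1 and -3.92 in shHuR. Those of all genes were then -0.04 and -0.03. Fibroblast markers summed to 7105 CPM in the shHuR input, 1.19e+04 in shADAR1 and 1.18e+04 in shControl. Endothelial markers summed to 37.0, 73.0 and 19.4 CPM in the same inputs. The endothelial marker TEK had a log2 ratio of 1.09 in shHuR and 2.16 in shADAR1, and VWF one of -1.55 and -0.95. The monocyte marker CD14 was higher in shADAR1, with a log2 ratio of 6.01, and the macrophage marker CD68 stood at -0.11 in shHuR and -0.12 in shADAR1. The part of these markers in the ratios of the mitotic genes was not tested.

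The transcription factors had the lowest median of the 11 groups in both lines, at -5.11 in shHuR and -1.74 in shADAR1. FOXM1 had 159 counts in the shHuR input, 786 in shADAR1 and 4136 in shControl. Its log2 ratio was -4.60 (-4.84 to -4.37) in shHuR and -1.91 (-2.02 to -1.80) in shADAR1. MYBL2 had 29, 395 and 1643 counts in shHuR, shADAR1 and shControl, with ratios of -5.72 (-6.31 to -5.20) in shHuR and -1.57 (-1.73 to -1.41) in shADAR1. The shADAR1 line thus had lower MYBL2 than its control, where the KD library of the RNA-seq had higher MYBL2 than its own.

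The cyclin group was lower by less in shHuR, with a median of -3.13. CCNB1 had 433 counts in shHuR, 765 in shADAR1 and 2348 in shControl, which gave -2.34 (-2.49 to -2.19) in shHuR and -1.13 (-1.25 to -1.01) in shADAR1. CDC25B had 1347, 1511 and 6780 in the same lines, and its ratios were -2.23 (-2.32 to -2.15) in shHuR and -1.68 (-1.76 to -1.60) in shADAR1. CDK1 itself had 32, 376 and 764 counts, with ratios of -4.48 (-5.03 to -3.97) and -0.54 (-0.72 to -0.36). CDC25B was 4.69-fold lower in shHuR and 3.20-fold lower in shADAR1, and CDK1 was 22.3-fold lower in shHuR and 1.45-fold lower in shADAR1.

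The kinases differed widely. NEK2 had 11 counts in shHuR, 118 in shADAR1 and 665 in shControl, 56.4-fold lower in shHuR (-5.82, -6.83 to -4.97) and 4.02-fold lower in shADAR1 (-2.01, -2.30 to -1.72). PLK1 had 88, 497 and 1965 counts, with -4.38 (-4.70 to -4.07) in shHuR and -1.50 (-1.64 to -1.35) in shADAR1. AURKA had 923, 698 and 1579 counts and stayed under 2-fold in both, at -0.67 (-0.79 to -0.56) in shHuR and -0.69 (-0.82 to -0.56) in shADAR1.

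Within the chromosomal passenger complex the subunits did not move together. BIRC5 had 99 counts in shHuR, 700 in shADAR1 and 3143 in shControl (-4.89, -5.19 to -4.60 in shHuR, and -1.68, -1.80 to -1.56 in shADAR1). INCENP had 596, 835 and 1108 counts, and stood at -0.79 (-0.94 to -0.65) in shHuR and 0.08 (-0.05 to 0.21) in shADAR1, the highest of the 50 there. AURKB, like BIRC5, was low, at -3.86 in shHuR and -1.43 in shADAR1. BUB3 stood apart in the same way within the checkpoint group. It had 3561 counts in shHuR, 2272 in shADAR1 and 4031 in shControl, with -0.08 (-0.14 to -0.01) in shHuR and -0.34 (-0.42 to -0.27) in shADAR1. MAD2L1 had 151, 360 and 839 counts and was lower in shHuR at -2.37 (-2.63 to -2.12) and in shADAR1 at -0.73 (-0.92 to -0.55).

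All 3 anaphase genes and all 10 kinetochore genes were lower at 2-fold in shHuR, and 2 and 7 of them in shADAR1. CDC20 had 84 counts in shHuR, 462 in shADAR1 and 1936 in shControl (-4.43, -4.76 to -4.11 in shHuR, and -1.58, -1.73 to -1.43 in shADAR1). PTTG1 had 159, 374 and 1585 counts (-3.22, -3.46 to -2.98 in shHuR, and -1.60, -1.76 to -1.43 in shADAR1). CENPA had 6, 72 and 487 counts and was the lowest of the 50 in shADAR1, 4.83-fold lower (-2.27, -2.65 to -1.91), and 75.7-fold lower in shHuR (-6.24, -7.70 to -5.11). With so few counts the shHuR interval spans more than 2 units of log2. CENPF, with 148, 1035 and 2402 counts, stood at -3.92 (-4.17 to -3.68) in shHuR and -0.73 (-0.84 to -0.62) in shADAR1, and CENPE, with 110, 337 and 950 counts, at -3.01 (-3.31 to -2.72) and -1.01 (-1.19 to -0.83).

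The 6 kinesins had a median of -4.59 in shHuR and -1.15 in shADAR1. KIF11 had 179 counts in shHuR, 498 in shADAR1 and 1589 in shControl (-3.05, -3.28 to -2.83 in shHuR, and -1.19, -1.34 to -1.04 in shADAR1). KIF23 had 326, 606 and 1324 counts (-1.92, -2.10 to -1.75 in shHuR, and -0.64, -0.78 to -0.50 in shADAR1). Of the spindle proteins, TROAP, a cytoplasmic protein needed for spindle assembly, was the lowest of all 50 in shHuR. It had 5 counts in shHuR, 121 in shADAR1 and 655 in shControl, 122-fold lower in shHuR (-6.93, -8.56 to -5.70) and 3.87-fold lower in shADAR1 (-1.95, -2.24 to -1.67). ASPM had 129, 525 and 1600 counts (-3.53, -3.80 to -3.27 in shHuR, and -1.12, -1.27 to -0.98 in shADAR1), and PRC1 had 168, 973 and 2512 (-3.80, -4.04 to -3.58 in shHuR, and -0.88, -0.99 to -0.78 in shADAR1).

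Cytokinesis genes were lower by the least, and 0 of the 3 reached 2-fold in shADAR1. ANLN had 359 counts in shHuR, 1841 in shADAR1 and 3145 in shControl (-3.03, -3.19 to -2.87 in shHuR, and -0.29, -0.37 to -0.20 in shADAR1). ECT2 had 905, 1106 and 1836 counts and was under 2-fold in both, at -0.92 (-1.04 to -0.80) in shHuR and -0.25 (-0.35 to -0.14) in shADAR1. MKI67 had 215, 1982 and 5782 counts (-4.65, -4.85 to -4.45 in shHuR, and -1.06, -1.13 to -0.98 in shADAR1). TOP2A had 203, 1906 and 3530 counts (-4.02, -4.23 to -3.81 in shHuR, and -0.40, -0.48 to -0.32 in shADAR1). The 4 genes not called lower in shHuR were thus BUB3, AURKA, INCENP and ECT2. With GC and length trends removed, ECT2 stood at -1.24 in shHuR and was past 2-fold.

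**Figure D3:**
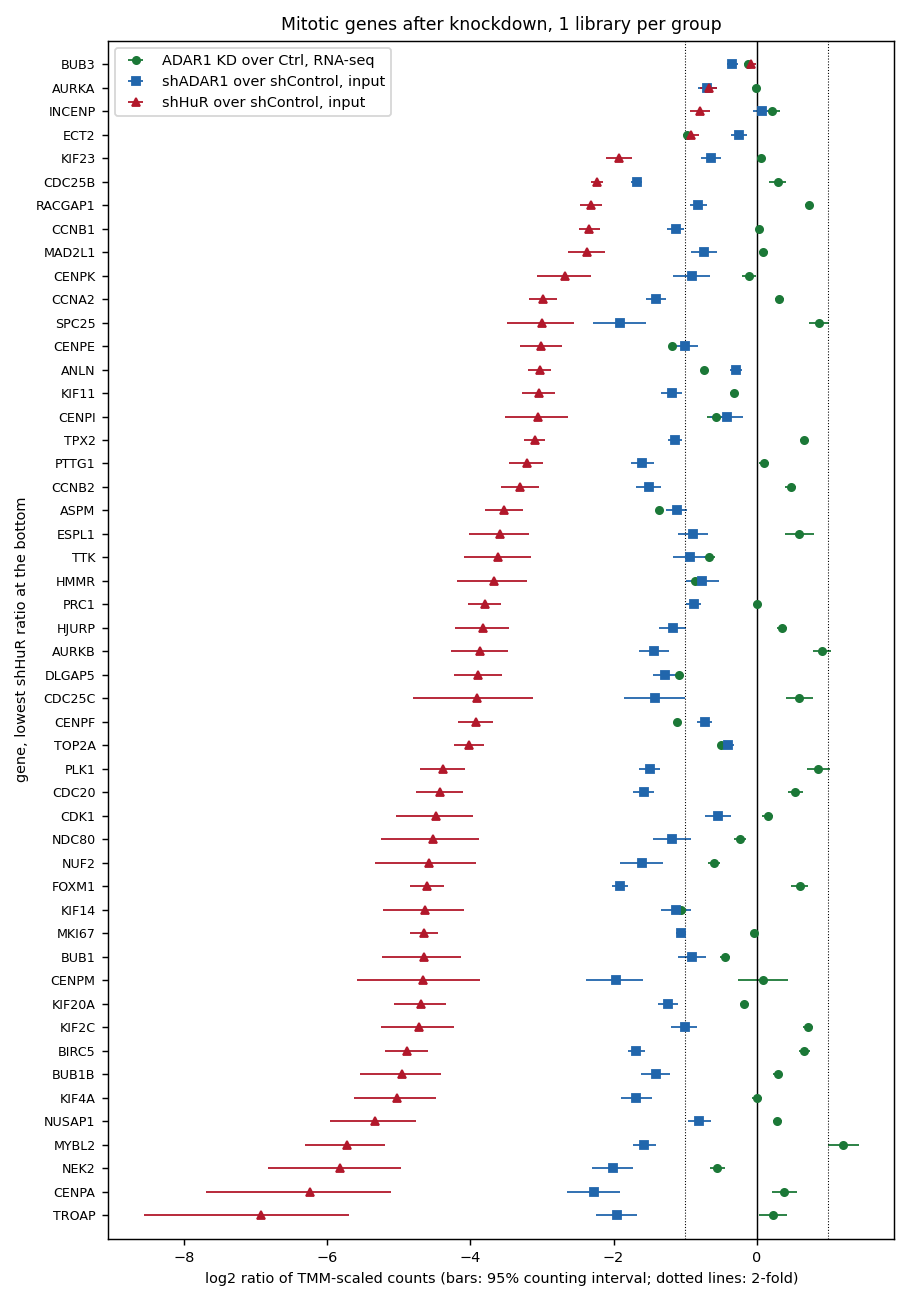
Log2 ratio of TMM-scaled counts for each of the 50 genes in 3 comparisons, with 95% counting intervals as bars and dotted lines at 2-fold. The shHuR triangles reach -6.93 (TROAP), the shADAR1 squares lie between -2.27 (CENPA) and 0.08 (INCENP), and the RNA-seq circles scatter on both sides of 0.

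Set directly against the shADAR1 input, the shHuR input was lower for 45 of 50 genes at 2-fold, where 9.67% of all 13020 genes were, and higher for 0, where 5.24% were. The median was -2.62, against 0.00 over all genes. TROAP was the lowest, with 5 counts in shHuR and 121 in shADAR1 (-4.97, -6.62 to -3.71). The 5 genes not called were INCENP (-0.86), ECT2 (-0.66), CDC25B (-0.54), AURKA (0.03) and BUB3, which had 3561 counts in shHuR and 2272 in shADAR1 (0.28, 0.20 to 0.35). Apart from CDC25B these are also the 4 genes that were under 2-fold in shHuR against shControl before GC and length trends were removed.

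The ADAR1 knockdown could be tested only by joining the RNA-seq pair with the shADAR1 and shControl inputs, 4 libraries with the experiment as a block. In edgeR's quasi-likelihood test with Benjamini-Hochberg adjustment over 15994 genes, 0 of the 50 rose, where 0.0813% of all genes did, and 0 fell, where 0.0125% did. At an unadjusted p under 0.05, 0 rose, where 445 of the 15994 genes did. At that limit 6 fell (ASPM, DLGAP5, KIF14, CENPE, NEK2 and NUF2), where 316 of all genes did. DESeq2 also called 0 in either direction after adjustment. ASPM had the smallest p, with a log2 change of -1.25 ± 0.44 (SE, adjusted p = 0.80). The median over the 50 was -0.54, from -1.14 in the inputs and 0.07 in the RNA-seq pair taken alone. The experiments thus differed in sign as well as size, with 49 of the 50 below 0 in the inputs and 21 in the RNA-seq pair. With 1 residual degree of freedom the test has little power, and the difference between the experiments has no replicate check.

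HuR recovery was read from the precipitate of each line against its own input. Across the 3 lines, 8 of the 50 genes rose in the precipitate, where 30.3% of all 16232 genes did, and 27 fell, where 31.3% did (edgeR's quasi-likelihood test, line as block, Benjamini-Hochberg adjustment at 0.05). The median log2 change was -1.11, against -0.11 over all genes. The 3 lines differ in treatment, and shHuR is the HuR knockdown itself, so they are not replicates of the same condition. The SE and adjusted p of this test therefore include differences in recovery between the lines. The genes that rose were BIRC5, SPC25, INCENP, KIF11, CENPA, NUSAP1, KIF20A and BUB3. At an unadjusted p under 0.05 the counts were 9 and 29, against 5241 and 5500 of the 16232 genes. Without the shADAR1 line 3 rose and 19 fell. Scaling by total counts shifted the median of all genes to -1.06 and that of the 50 to -2.06, and 2 of the 50 then rose and 37 fell.

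BIRC5 had the highest estimate over the 3 lines. Its precipitate held 322 counts in shHuR, 3823 in shADAR1 and 11997 in shControl, against inputs of 99, 700 and 3143. It rose 7.07-fold (log2 2.82 ± 0.27 SE, adjusted p = 1.784e-05, edgeR), and its precipitate exceeded its input in every line. SPC25 had 49, 364 and 966 counts in the precipitates against 45, 74 and 388 in the inputs (2.07 ± 0.36, adjusted p = 0.000631, edgeR). INCENP had 428, 3776 and 2677 against 596, 835 and 1108 (1.80 ± 0.35, adjusted p = 0.00130, edgeR). INCENP was the only member with more counts in the shADAR1 precipitate than in the shControl precipitate.

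KIF11 had 95, 1218 and 3424 counts in the precipitates of shHuR, shADAR1 and shControl against 179, 498 and 1589 in their inputs (1.32 ± 0.35, adjusted p = 0.00740, edgeR). BUB3 had 1727, 4820 and 6117 against 3561, 2272 and 4031 (1.02 ± 0.30, adjusted p = 0.0130, edgeR). KIF20A, the kinesin that carries the passenger complex to the central spindle, had 28, 1166 and 3611 against 68, 568 and 1884 (1.12 ± 0.37, adjusted p = 0.0209, edgeR). In KIF11, BUB3 and KIF20A the shADAR1 and shControl precipitates were above their inputs by more than the shHuR precipitate was. CENPA, with 16, 114 and 530 counts against 6, 72 and 487, changed by 1.31 ± 0.41 (adjusted p = 0.0177, edgeR). Line by line it was under 2-fold above input in shADAR1 (log2 0.86) and shControl (0.91). NUSAP1, with 42, 516 and 1628 counts against 25, 443 and 1081, changed by 1.26 ± 0.38 (adjusted p = 0.0132, edgeR). It was past 2-fold in shControl (1.38) and under it in shADAR1 (0.43). Both genes had too few counts in shHuR for a call in that line.

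PTTG1 was at the other end. It had 26, 33 and 72 counts in the precipitates of shHuR, shADAR1 and shControl against 159, 374 and 1585 in the inputs, and it fell 6.92-fold (-2.79 ± 0.49, adjusted p = 0.000651, edgeR). PLK1, with 11, 57 and 155 counts against 88, 497 and 1965, also fell (-2.55 ± 0.38, adjusted p = 0.000264, edgeR), as did CDC25C, with 0, 11 and 27 counts against 14, 60 and 225 (-2.42), and the kinetochore gene CENPM (-2.75). Both transcription factors fell, with log2 changes of -2.07 for MYBL2 and -1.58 for FOXM1. So did MKI67 and TOP2A, 2 of the 3 cytokinesis genes, 4 of the 6 genes of the cyclin group and 5 of the 7 spindle proteins. The passenger complex was split, with BIRC5 and INCENP risen and AURKB fallen (-1.91). NEK2, with 59, 135 and 509 counts against 11, 118 and 665, did not pass the test, at 1.28 ± 0.57 (adjusted p = 0.0705, edgeR).

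Of the 7 regulators and centromere genes that follow, 6 fell. In the precipitates of shHuR, shADAR1 and shControl, FOXM1 had 30, 189 and 679 counts, MYBL2 had 11, 55 and 135, and CCNB1 had 60, 181 and 481. CDC25B had 304, 517 and 1023 counts, AURKA had 141, 109 and 307, and CENPF had 34, 376 and 450. These 6 passed the test. CENPE, with 53, 95 and 155 counts, did not pass it (-1.08 ± 0.44, adjusted p = 0.0519, edgeR).

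Among spindle and cytokinesis genes, KIF23 had 41, 114 and 194 counts in the same precipitates, PRC1 had 17, 192 and 506, and ASPM had 33, 202 and 489. ECT2 had 260, 345 and 462, TOP2A had 40, 404 and 732, and MKI67 had 43, 519 and 892. These 6 genes also fell. ANLN, with 54, 972 and 1666 counts, did not pass the test (-0.70 ± 0.33, adjusted p = 0.0845, edgeR).

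The checkpoint gene MAD2L1, the anaphase activator CDC20, the spindle protein gene TROAP and the kinase CDK1 had changes on both sides of 0. MAD2L1 had 44, 267 and 803 counts in the precipitates (0.06 ± 0.35, adjusted p = 0.891, edgeR), and CDC20 had 34, 737 and 2154 (0.68 ± 0.33, adjusted p = 0.0914, edgeR). TROAP had 11, 98 and 622 (0.76 ± 0.44, adjusted p = 0.156, edgeR), and CDK1 had 6, 168 and 452 (-0.56 ± 0.37, adjusted p = 0.208, edgeR). None of these 4 passed the test.

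**Figure D4:**
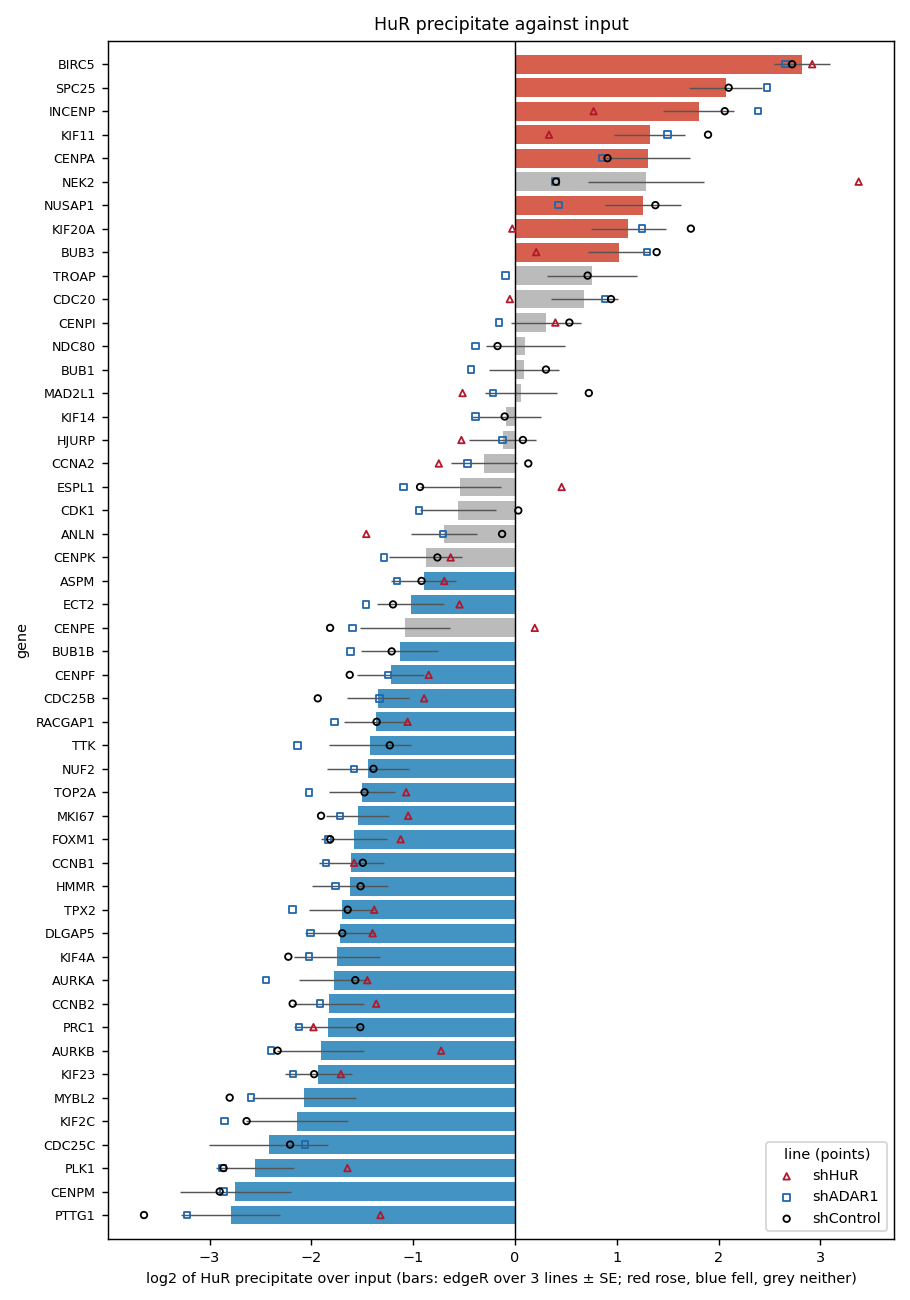
Log2 of HuR precipitate over input for the 50 genes, with bars for the edgeR estimate over 3 lines (± SE; red rose, blue fell, grey neither) and open points for each line with enough counts. Of the genes whose bars are red, BIRC5 has its 3 points close together, whereas KIF11, KIF20A, BUB3 and INCENP have the shHuR point to the left of the others.

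Line by line, 7 of the 50 were at least 2-fold above input in shControl (30.7% of all genes) and 27 at least 2-fold below (38.4%). In shADAR1 these counts were 6 (30.0%) and 30 (37.5%). In shHuR 33 members had at least 50 counts in either library, and 2 were above (25.5%) and 14 below (25.4%). The median log2 enrichment was -0.75 over the 33 members in shHuR, -1.40 over the 50 in shADAR1 and -1.22 over the 50 in shControl.

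Enrichment in shADAR1 and shControl lay within 2-fold of each other for every member. Of the 50 genes 0 were at least 2-fold higher in shADAR1, where 8.38% of all 12641 genes were, and 0 were lower, where 2.87% were. The extremes were CDC25B, with a log2 enrichment of -1.33 in shADAR1 and -1.94 in shControl (difference 0.60), and CDK1, with -0.94 in shADAR1 and 0.03 in shControl (difference -0.98).

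Between shHuR and shControl the differences were wider. Of the 33 genes with enough counts, 7 were at least 2-fold higher in shHuR, where 28.3% of all 12468 genes were, and 6 were lower, where 12.9% were. Their median log2 difference was 0.26, against 0.25 over all genes, with 21 of the 33 above 0. The 6 lower were KIF20A, KIF11, ANLN, INCENP, MAD2L1 and BUB3. KIF20A was the lowest, at -0.03 in shHuR and 1.73 in shControl (difference -1.75). BIRC5 stood at 2.92 in shHuR and 2.72 in shControl. NEK2 was the highest, at 3.38 in shHuR and 0.40 in shControl (difference 2.97), from 59 precipitate counts and 11 input counts in shHuR, so that it met the minimum of 50 only through the precipitate. PTTG1 and CENPE were also among those higher, PTTG1 at -1.32 in shHuR and -3.64 in shControl, and CENPE at 0.19 in shHuR and -1.82 in shControl. The shHuR precipitate held 59 counts of NEK2, 26 of PTTG1 and 53 of CENPE, and the part of low counts in these differences was not tested.

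HuR is known to bind U-rich stretches in 3' untranslated regions (3' UTRs), so these were searched for 5 T in a row, with overlaps counted, in GENCODE 29 transcripts. The motifs were chosen after the recovery values had been seen. Below are 30-base windows around the longest run of T, in capitals, written as DNA from 5′ to 3′. They come from the 3' UTRs of 6 genes that rose in the test over 3 lines and 3 that fell.
BIRC5: gtttttttgTTTTTTTTTTTTTggtagatg
SPC25: attacatatctcTTTTTTTcttgtttttat
INCENP: agctccttcctaTTTTTTggggtgctccct
KIF11: accatctcatgTTTTTTTTcttgctatgac
KIF20A: tcatgttgttgTTTTTTTTTatttacttat
CENPA: aaatatttttcTTTTTTTTgagaaggagaa
PTTG1: aTTTcttagtgcttcagagtttgtgtgtat
CENPM: gcagagcctgtgtcTTTaagcagctggcgt
PLK1: gctgtataagttaTTTTTgtacatgttcgg
The longest run was 13 T in BIRC5, on chromosome 17, 7 in SPC25, 6 in INCENP, 8 in KIF11 and CENPA and 9 in KIF20A. It was 3 in PTTG1 and CENPM and 5 in PLK1. The longest run does not separate the members by recovery. Of genes not shown, it was 12 T in NUSAP1 and BUB3, which rose. It was 7 T in MYBL2, KIF23, AURKA, TPX2 and NUF2, which fell. BIRC5 held 24 stretches of 5 T in 2082 bases of 3' UTR, and PTTG1 held 0 in 58 bases.

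Over the 50 genes the number of such stretches went with recovery, with rho = 0.56 (r = 0.43), and over 13126 genes with rho = 0.65 (r = 0.54). All points share the 6 libraries. Of the 16 members with 8 or more stretches, 7 rose and 1 fell, with a median log2 change of 0.85. Of the 11 with 4 to 7, 0 rose and 9 fell (median -1.45), of the 13 with 1 to 3, 1 rose and 10 fell (median -1.61), and of the 10 with none, 0 rose and 7 fell (median -1.57). Over all genes the medians were 0.86, -0.71, -1.29 and -1.69 in the same bins. Of the 5971 genes with 8 or more stretches 3006 rose and 593 fell, of the 1781 with 4 to 7 the numbers were 209 and 740, of the 2662 with 1 to 3 they were 211 and 1613, and of the 2712 with none they were 228 and 1789. Among the members called, the exceptions were INCENP, which rose with 2 stretches, and KIF23, which fell with 9. Members not called also departed from the relation. MAD2L1 had 29 stretches and a log2 change of 0.06, and ANLN had 19 and -0.70. TROAP (0.76) and NDC80 (0.10) lay above 0 with 0 stretches. For the AU-rich pentamer ATTTA rho was 0.26 in the 50 and 0.48 over all genes. The length of the 3' UTR moved with the count of stretches, with medians of 192, 427, 877 and 852 bases in the members' bins from none to 8 or more. In the 50, rho with recovery was 0.21 for that length alone and 0.47 for stretches per kilobase, against 0.50 and 0.54 over all genes.

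**Figure D5:**
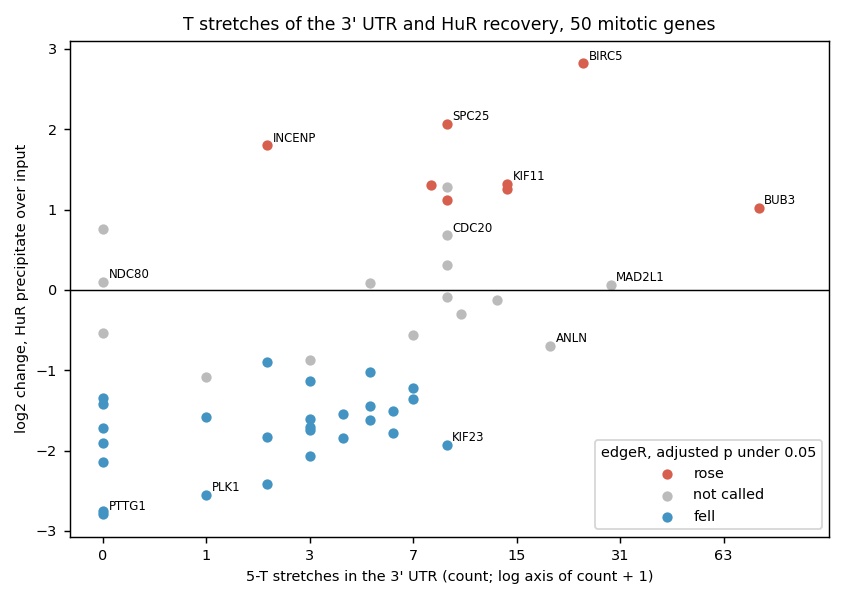
Log2 change of HuR precipitate over input (edgeR over 3 lines) against the number of 5-T stretches in the 3' UTR (log axis of count + 1) for the 50 genes, coloured by the test. Red points (rose) lie at 8 or more stretches except INCENP at 2, and blue points (fell) lie at 7 or fewer except KIF23 at 9.

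Lists of other mitotic genes that are not among the 50 were counted in the same way. In shHuR against shControl, 21 of 32 other kinetochore and centromere genes were lower at 2-fold and 0 higher, where 15.9% of all genes were lower and 12.0% higher, from the cohesin protector SGO1 at -4.90 to CENPC, which links centromeric chromatin to the kinetochore, at 0.55. Of 8 condensin genes 6 were lower, from NCAPH at -4.07 to SMC2 at -0.21. Of 23 other spindle and cytokinesis genes 20 were lower, from the kinase PBK at -5.03 to the microtubule polymerase CKAP5 at 0.28. Of 14 other genes of mitotic entry and exit 11 were lower, from PKMYT1, which inhibits CDK1, at -5.77 to FZR1, the late activator of the anaphase-promoting complex, at -0.22. In shADAR1, where 10.3% of all genes were lower, the counts lower were 10, 4, 14 and 8, with 0 higher in each list.

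The 3 further lists differed from these in their counts. Of 14 subunits of the anaphase-promoting complex, 0 were lower and 0 higher in either input comparison, with a median of 0.22 in shHuR and -0.04 in shADAR1. Of 9 cohesin genes, 0 were called in either, with medians of -0.44 in shHuR and 0.10 in shADAR1. Of 9 genes of the DREAM and MuvB complexes, 2 were lower and 1 higher in shHuR and 1 lower in shADAR1. In the RNA-seq pair 0 to 2 genes of each of the 7 lists were called in either direction, where 8.31% of all genes were higher and 7.71% lower. In the HuR precipitates, 8 of the other kinetochore genes rose and 11 fell, and 0 and 6 of the condensin genes, 3 and 9 of the spindle genes, 4 and 6 of the entry and exit genes, 2 and 9 of the anaphase-promoting complex, 2 and 4 of cohesin and 3 and 2 of DREAM and MuvB did so (edgeR, adjusted p under 0.05), where 30.3% of all genes rose and 31.3% fell.

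The non-members whose log2 CPM was most like the mean of the 50, by Pearson correlation over the 8 libraries among 13431 genes, were SKA3 (0.997), CKAP2L (0.995), MELK (0.994), FBXO5 (0.993) and NCAPG (0.993). SKA3 is a kinetochore subunit, CKAP2L a spindle protein, MELK a kinase, FBXO5 an inhibitor of the anaphase-promoting complex and NCAPG a condensin subunit. The 8 libraries fall into RNA-seq, input and precipitate, so this likeness includes differences between kinds of library.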

How the data were processed

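Gene counts of 8 IMR90 libraries were analysed, 1 for each group, with groups taken from the sample titles. Per the submitters' processing notes, RSEM 1.2.3 estimated the deposited expected counts per gene, on hg19 (all libraries), with GRCh37 also named for the precipitation experiment. All values are whole numbers. The deposited FPKM values of the RNA-seq served for levels per length and 1 alternative. The submitters' processing notes also name DESeq2 for the RNA-seq. The aligner, the annotation release and the strand setting are not given in the sources used here, so genes that overlap over 50% of their exon bases are called uncertain. Library totals ranged from 28390935 to 50711218 counts, and 0 columns were left unused.

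Differences between a pair of libraries are log2 ratios of TMM-scaled counts with an exact conditional binomial interval at 95%. A prior count of 2 was added for calls, medians and enrichment, and a gene was called at 2-fold with at least 50 counts in either library. Precipitate against input was tested over 6 libraries (2 residual degrees of freedom) with line as block, and the knockdown over 4 libraries (1 residual degree of freedom) with experiment as block. The labels give this pairing, since both libraries of a block come from the same line or experiment. Both used edgeR 4.0.16 (quasi-likelihood, its filter on low counts, TMM, Benjamini-Hochberg at 0.05), with DESeq2 1.42.0 as an alternative, in R 4.3.3. Both were also run on simulated data with 200 changed genes. The simulated counts held no differences between lines or experiments, so they cannot show how the tests perform where such differences exist. No label says that libraries came from separate cultures, so the p-values cover only how these libraries vary, which may be technical. In the precipitation test this spread also holds differences between the knockdown lines. GC and length trends were removed with mgcv 1.9.3.

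The members, the other gene lists and the tests were chosen with earlier results of these data known. Counts of every library are given for the 2 most abundant members of each role, the extremes of each comparison, the 3 highest and 3 lowest in mean enrichment, and the extremes of the enrichment differences. Other members are named as examples of their role. Symbols matched 51959 IDs through a gene table and 341 more through GENCODE 29, which also gave transcript length, GC content and 3' UTRs for all 50 members. 1 marker symbol (PECAM1) had no match. The summed level of the leukocyte markers is not reported here. Promoters came from RefSeq, and no coordinates of the files' build are given.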

Additional observations from a re-analysis of the deposited data

Results flagged for a closer look

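MYBL2, the transcription factor that activates late cell-cycle genes, stood on opposite sides of 0 in the ADAR1 knockdowns of the 2 experiments. Its log2 ratio was 1.21 in the RNA-seq (735 counts in KD and 243 in Ctrl) and -1.57 in the inputs (395 counts in shADAR1 and 1643 in shControl). Each side holds 1 library a group, and the difference was not tested. After removal of GC and length trends the RNA-seq value was 1.02 and the input value was -1.28.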

How the results depend on the processing

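Without the block for line, which is the pairing of precipitate and input, 2 members rose and 4 fell in the HuR precipitates, against 8 and 27 with it, and the cause was not tested. With scaling by total counts 2 rose, 4 (shControl) and 3 (shADAR1) were enriched at 2-fold, and 24 were lower in the shHuR precipitate than in its input. That scaling lowered the median of all genes to -1.06, against -0.11, and with it MAD2L1 (-0.89) and BUB1 (-0.86) lay below 0 and passed the test. Leaving out each line in turn gave 3 to 9 members that rose and 19 to 30 that fell. In the RNA-seq pair a limit of 1.5-fold gave 11 higher and 10 lower members. The share of all genes past 1.5-fold was not counted, so these numbers cannot be set against a background. With GC and length trends removed, 0 members of that pair were lower at 2-fold. The median of the members in the joined knockdown test was -1.14 without the RNA-seq pair and 0.07 without the inputs. The other 94 recounts of members stayed within 1.5 times under the settings tried, which included other size factors, another prior count, no count minimum and DESeq2. The knockdown test without its block for experiment also called 0 members. Counts were lowest in the shHuR precipitate, where 36 members had under 50.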
